A study of Mus musculus with 4 samples.

Results

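Aminoacyl-tRNA synthetases are the enzymes that load each tRNA with its amino acid. All 36 synthetase genes listed for this account, chosen by their symbols and not by their values, were found among the 15429 genes of the table. They comprised 18 genes of enzymes that work in the cytosol, 2 genes (Gars and Kars) whose products serve both the cytosol and the mitochondria, and 16 nuclear genes of mitochondrial enzymes. Expression was compared between epiblast stem cells of the line OE7 given Tox4 esiRNA (n = 2 libraries) and the same cells given Luc esiRNA, the control (n = 2 libraries). Epiblast stem cells are pluripotent cells derived from the mouse embryo after implantation, and the cells of both groups carried the Oct4-Gip transgene, an Oct4 reporter. Both groups were grown on fibronectin at passages 21 to 25 in N2B27 medium with Fgf2 (12 ng/ml) and Activin A (20 ng/ml), and transfected with 1000 ng of esiRNA, a pool of short interfering RNAs cut from long double-stranded RNA. Only 1 line and 1 esiRNA pool per target were used, and no label ties the replicates to separate cultures, so that a p-value reflects the spread among these 4 libraries alone, which may be technical. Tox4 encodes a chromatin-associated HMG-box protein, and its level was 8.65 and 8.89 FPKM (fragments scaled to gene length and library depth) in the Tox4 libraries, against 16.7 and 17.5 FPKM in the Luc libraries.

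In mammals most amino acids have 1 gene for the cytosolic synthetase and another for the mitochondrial enzyme, which is made in the cytosol and imported. Cytosolic synthetases feed the ribosomes that translate nuclear messages, and several of them are held together with the scaffold proteins Aimp1, Aimp2 and Eef1e1 in the multisynthetase complex. When uncharged tRNA accumulates, the kinase Gcn2 (gene Eif2ak4) phosphorylates eIF2, translation of the transcription factor Atf4 rises, and Atf4 activates genes of amino acid synthesis, amino acid uptake and many, but not all, cytosolic synthetases. Mitochondrial synthetases serve the translation of the few proteins encoded by mitochondrial DNA.

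The libraries held 14739221 and 12778044 reads for Tox4 esiRNA and 19008803 and 14998194 reads for Luc esiRNA, worked back from the deposited values. Marker genes matched the labelled cell type. The summed level of 8 epiblast stem cell markers, among them Pou5f1, Nanog and Fgf5, was 1349 and 1383 FPKM in the Tox4 libraries and 1371 and 1351 FPKM in the Luc libraries. Pou5f1 was the largest part of this sum, at 583 and 613 FPKM against 588 and 582 FPKM. The 8 fibroblast markers in the table summed to 19.5 and 20.3 FPKM with Tox4 esiRNA and 21.4 and 21.4 FPKM with Luc esiRNA, and Col3a1, Dcn, Pdgfra and Postn had means below 1 FPKM. Markers of neighbouring lineages differed between the groups: the 5 neural progenitor markers in the table summed to 91.2 and 91.2 FPKM with Tox4 esiRNA against 77.7 and 76.5 FPKM with Luc esiRNA, and the 6 primitive streak and endoderm markers to 25.7 and 26.5 FPKM against 36.6 and 35.4 FPKM. Within these sums 3 of 4 tested neural markers were called higher, with log2 fold changes of 1.12 for Sox1, 0.83 for Fabp7 and 0.34 for Ncam1, while Nes, the largest part of the sum, stood at -0.06. Of 4 tested primitive streak and endoderm markers only T was called, as lower (5.31 and 5.59 FPKM against 12.2 and 12.6 FPKM, -1.06), and 3 did not pass. All 4 were below 0, 3 were lower at an unadjusted p under 0.05 in limma, and limma-voom called 2 lower. Sox2 was the 1 epiblast marker of 8 called, as higher (93.2 and 87.6 FPKM against 76.3 and 76.4 FPKM, 0.24). At an unadjusted p under 0.05 in limma 3 of the 8 were lower, namely Otx2 (-0.15), Dnmt3b (-0.13) and Lin28a (-0.09), and 1 was higher. In limma-voom on the recovered reads 1 was called lower and 1 higher. Of all tested genes 51.2% were below 0, and 11.5% were lower and 10.0% higher at an unadjusted p under 0.05 in limma. The shares called in limma-voom were 5.87% and 5.97%. No marker in the table was listed at 0 in all 4 libraries. The part of these lineage differences in the synthetase values was not tested, and in bulk RNA fewer cells of a type and less RNA per cell cannot be told apart.

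Synthetase transcripts were abundant, and each cytosolic enzyme exceeded its mitochondrial counterpart. The median cytosolic gene had a mean of 68.4 FPKM with Tox4 esiRNA and 69.3 FPKM with Luc esiRNA, and the median mitochondrial gene 12.5 FPKM and 12.3 FPKM. The highest levels belonged to Gars, the glycyl-tRNA synthetase (208 and 210 FPKM in the Tox4 libraries, 230 and 227 FPKM in the Luc libraries), Sars, the seryl-tRNA synthetase, and Nars, the asparaginyl-tRNA synthetase. The lowest belonged to mitochondrial enzymes, namely Wars2 for tryptophan (2.98 and 2.44 FPKM in the Tox4 libraries, 2.90 and 2.85 FPKM in the Luc libraries), Mars2 for methionine (4.13 and 3.73 FPKM, against 3.66 and 3.80 FPKM) and Ears2 for glutamate (5.85 and 6.42 FPKM, against 5.71 and 5.24 FPKM). Depth followed level. The cytosolic and dual genes rested on 1398 to 10706 reads in a library and the mitochondrial genes on 91 to 5724.

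**Figure D1:**
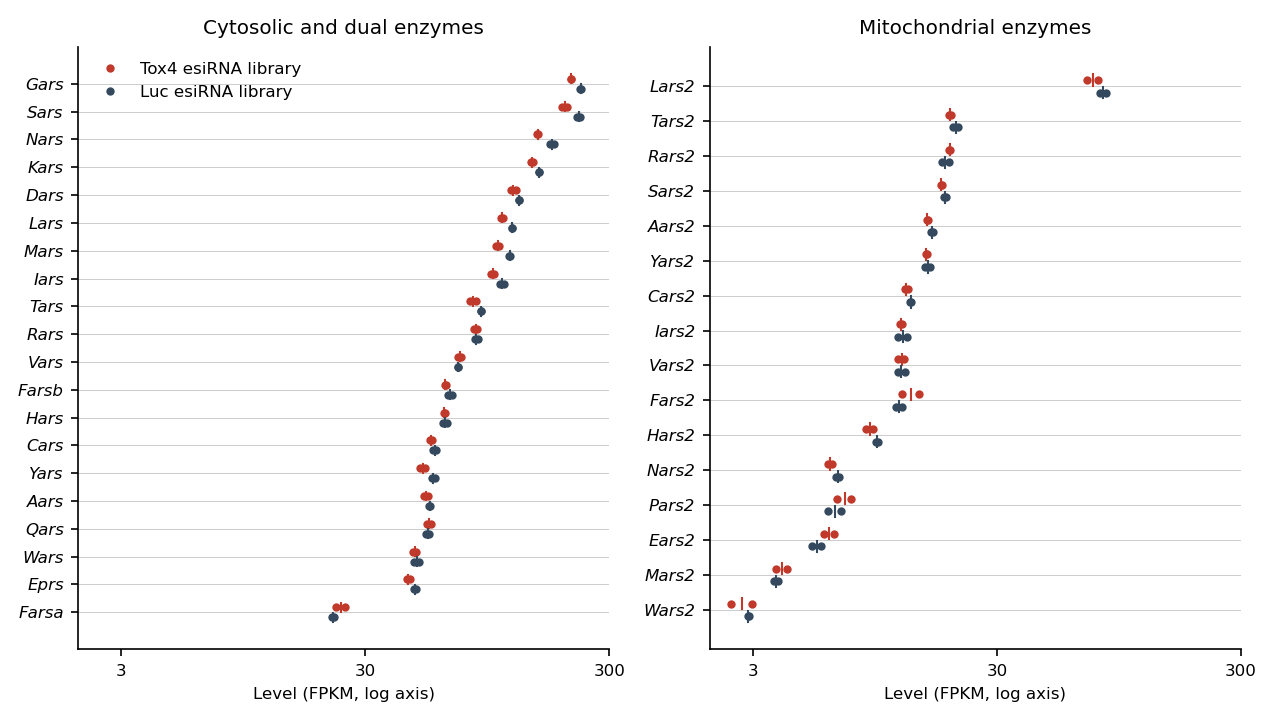
Level of each of the 36 synthetase genes in FPKM on a log axis, cytosolic and dual enzymes in the left panel and mitochondrial enzymes in the right panel. Each point is 1 library (Tox4 esiRNA red, Luc esiRNA dark blue, n = 2 each) and each bar the mean of a group. Group means of the cytosolic and dual genes ran from 22.2 to 228 FPKM, and those of the mitochondrial genes from 2.71 to 81.8 FPKM, with Lars2 far above the other mitochondrial genes.

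In 15 pairings of a cytosolic with a mitochondrial enzyme for the same amino acid, in which Eprs stood against both Pars2 and Ears2, the cytosolic gene had the higher mean in all 15, in both groups. The median ratio of levels was 6.32 with Tox4 esiRNA and 6.60 with Luc esiRNA. The widest ratio was that of Mars to Mars2, at 26.7 with Tox4 esiRNA and 31.4 with Luc esiRNA, followed by Nars to Nars2 at 24.6 and 26.1. The narrowest was that of Lars to Lars2, the leucyl enzymes, at 1.47 in both groups. Lars2 was the exception among mitochondrial genes, with 70.5 and 77.8 FPKM in the Tox4 libraries and 79.7 and 83.9 FPKM in the Luc libraries, whereas the next mitochondrial gene, Tars2 for threonine, had 19.4 and 19.2 FPKM against 20.8 and 19.9 FPKM. Phenylalanine is charged in the cytosol by a complex of 2 kinds of subunit, and the gene of the beta subunit, Farsb (64.1 and 63.5 FPKM against 67.9 and 65.5 FPKM), was above that of the alpha subunit, Farsa (22.8 and 24.7 FPKM against 22.0 and 22.4 FPKM), in every library.

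After Tox4 knockdown a single synthetase gene, Nars, passed the test, as lower, and several other abundant cytosolic genes lay below the control without passing it. Nars (ENSMUSG00000024587, chromosome 18, 64499647 to 64516652, minus strand, GRCm38) had 153 and 152 FPKM in the Tox4 libraries, against 177 and 172 FPKM in the Luc libraries. Nars fell to a mean of 152 ± 1.19 FPKM with Tox4 esiRNA, against 174 ± 3.88 FPKM with Luc esiRNA (SD, n = 2 each), a difference of -12.7%. This was a change of -0.19 on the log2(FPKM + 1) scale, with an SE of 0.03 and a 95% interval of -0.28 to -0.11 (adjusted p = 0.0381 in limma). No Tox4 library reached the lower Luc library, as in 26.7% of all tested genes. The call is not firm: over 13 alternative settings the adjusted p ran from 0.000998 to 0.227, and Nars passed in 6 of them and in none of the 4 that left out a library.

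Of the 36 synthetases, then, 1 was called lower and 0 higher, where 2.62% of the 12403 tested genes were called lower and 1.89% higher, so that the share of synthetases called, either way, was near the background of 4.51%. Both Tox4 libraries lay below both Luc libraries in 21 of the 36 and above in 4, against 26.7% and 25.3% of tested genes, or 52.0% either way. Among the 16 mitochondrial genes 0 were called by limma on FPKM. At an unadjusted p under 0.05, 10 synthetases were lower and 0 higher, against 11.5% and 10.0% of all tested genes (21.6% either way), and 1 of the 10, Lars2, was mitochondrial. In limma-voom on the recovered reads 8 were called lower (Nars, Sars, Mars, Lars, Gars, Iars, Yars and Lars2) and 0 higher, against 5.87% and 5.97% of tested genes. On simulated reads for the same 12403 genes the main test recovered 0.392% of changes of 1.1-fold and 27.7% of changes of 1.3-fold. These shares are for genes of all levels together, and recovery at the levels of the synthetases was not tested.

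Sars (chromosome 3, 108424865 to 108445209, minus strand) showed the largest difference without a call. Its levels were 192 and 201 FPKM in the Tox4 libraries, against 228 and 222 FPKM in the Luc libraries. The means were 196 ± 6.70 FPKM and 225 ± 4.64 FPKM (SD, n = 2 each). On the log2 scale the difference came to -0.20, its SE to 0.04 and its 95% interval to -0.29 to -0.10 (adjusted p = 0.0508). Both Tox4 libraries lay below both Luc libraries, as in 26.7% of all tested genes, and the adjusted p stood just above the threshold of 0.05. Sars passed in 4 of the alternatives. These were a filter at a mean of 5 FPKM, quantile normalization, limma-voom and the fit without Tox4 replicate 2, where 5.25%, 2.36%, 5.87% and 2.39% of tested genes were called lower.

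Mars, the methionyl-tRNA synthetase that also charges the initiator tRNA (chromosome 10, 127296221 to 127311786, minus strand), had 103 and 106 FPKM in the Tox4 libraries, against 117 and 117 FPKM in the Luc libraries (log2 fold change -0.16, SE 0.03, adjusted p = 0.0573). Its exons share 68 bases with those of Ddit3, the Chop gene, on the opposite strand, whose level was 5.78 and 5.32 FPKM against 6.37 and 6.79 FPKM. Whether strand was used in counting is not given in the sources used here. Lars, the cytosolic leucyl-tRNA synthetase, had 108 and 109 FPKM against 120 and 120 FPKM (-0.14, SE 0.03, adjusted p = 0.0666). Gars, whose levels are given above (chromosome 6, 55038007 to 55079500, plus strand) differed by -8.58%, with a log2 fold change of -0.13 (SE 0.03, adjusted p = 0.0825). In Mars, Lars and Gars the groups did not overlap, and the distance between the groups exceeded the range within either.

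The remaining cytosolic genes with unadjusted p under 0.05 were Yars, Iars and Tars, and the dual gene Kars joined them. Yars, the tyrosyl enzyme, had 50.2 and 52.9 FPKM in the Tox4 libraries, against 56.1 and 57.8 FPKM in the Luc libraries (log2 fold change -0.14). Iars, the isoleucyl enzyme, had 101 and 98.4 FPKM against 107 and 111 FPKM (-0.12), and Tars, the threonyl enzyme, had 80.3 and 85.1 FPKM against 89.3 and 89.3 FPKM (-0.11). Kars, the lysyl enzyme, had 143 and 146 FPKM against 154 and 155 FPKM (-0.09). None passed over all genes, with adjusted p from 0.120 to 0.187, and in each the groups did not overlap.

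**Figure D2:**
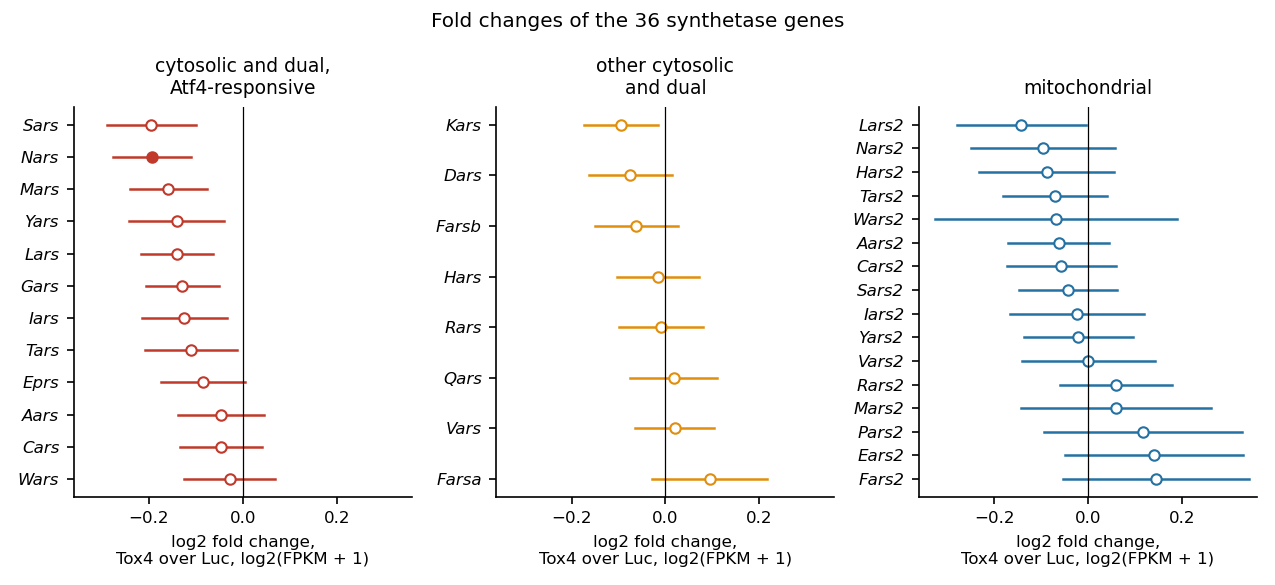
log2 fold change of each synthetase gene, Tox4 over Luc, on the log2(FPKM + 1) scale, with its 95% interval from limma. Panels hold the 12 Atf4-responsive genes, the 8 other cytosolic or dual genes and the 16 mitochondrial genes, and the filled point is Nars, the only gene past an adjusted p of 0.05. All 12 points of the left panel lie below 0, from -0.20 to -0.03, while those of the other panels lie on both sides. Of all tested genes 51.2% lie below 0. The division of the cytosolic and dual genes was made with earlier results of these data known.

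The cytosolic and dual genes were divided by what is known of their control, with the reservation that this division was made with earlier results of these data known. The 12 genes known as Atf4-responsive were Aars, Cars, Eprs, Gars, Iars, Lars, Mars, Nars, Sars, Tars, Wars and Yars. All 12 had log2 fold changes below 0, with a median of -0.13, while the median of all tested genes was -0.0034 and 51.2% of them were below 0. All 12 stayed below 0 under each scaling tried, and without Luc replicate 1 Wars moved to 0.0015. Under quantile normalization the median of the 12 moved to -0.10, with Wars at -0.01, Cars at -0.02 and Aars at -0.03. In 11 of the 12 both Tox4 libraries lay below both Luc libraries, as in 26.7% of all tested genes, with 52.0% not overlapping either way. The exception was Wars, the tryptophanyl enzyme, also known as an interferon-induced gene (47.1 and 48.4 FPKM against 49.7 and 47.7 FPKM). Only Nars of the 12 passed the test. The gene with the smallest non-overlapping difference in the group was Cars, the cysteinyl enzyme, with 56.4 and 55.1 FPKM against 57.0 and 58.2 FPKM (log2 fold change -0.05, 95% interval -0.13 to 0.04), with Aars, the alanyl enzyme, close to it (52.2 and 54.4 FPKM against 54.9 and 55.1 FPKM). The exons of Aars share 1326 bases with those of Exosc6 on the same strand, so that reads of Aars may be shared. Eprs, a fused enzyme that charges both glutamate and proline, had 45.6 and 44.4 FPKM against 47.4 and 48.3 FPKM (-0.09). Summed over the 12 genes, the level was 1198 and 1217 FPKM in the Tox4 libraries, against 1335 and 1325 FPKM in the Luc libraries, a difference of -9.20%.

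The other 8 cytosolic or dual genes, Dars, Farsa, Farsb, Hars, Kars, Qars, Rars and Vars, had a median log2 fold change of -0.01, with 5 below 0 and 3 above, and the median turned to 0.0019 under quantile normalization and to 0.0036 without Luc replicate 1. Both Tox4 libraries lay below both Luc libraries in 3 of them (Dars, Farsb and Kars) and above in 1 (Farsa). Over all tested genes the shares were 26.7% and 25.3%. Vars, the valyl enzyme, had 72.0 and 74.1 FPKM in the Tox4 libraries and 71.8 and 72.2 FPKM in the Luc libraries (0.02, 95% interval -0.06 to 0.10). Rars, the arginyl enzyme, had 83.7 and 86.1 FPKM against 86.9 and 84.1 FPKM (-0.01, -0.10 to 0.08). For Qars, the glutaminyl enzyme, the values were 53.8 and 55.7 FPKM against 53.3 and 54.8 FPKM (0.02, -0.08 to 0.11). The groups of these 3 genes overlapped, and their intervals leave room for changes of up to about -0.10 and 0.11 on the log2 scale. None of the 8 passed the test in limma on FPKM or in limma-voom, and 1 (Kars) had an unadjusted p under 0.05. The 8 genes summed to 627 and 632 FPKM with Tox4 esiRNA and 649 and 644 FPKM with Luc esiRNA, a difference of -2.65%.

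**Figure D3:**
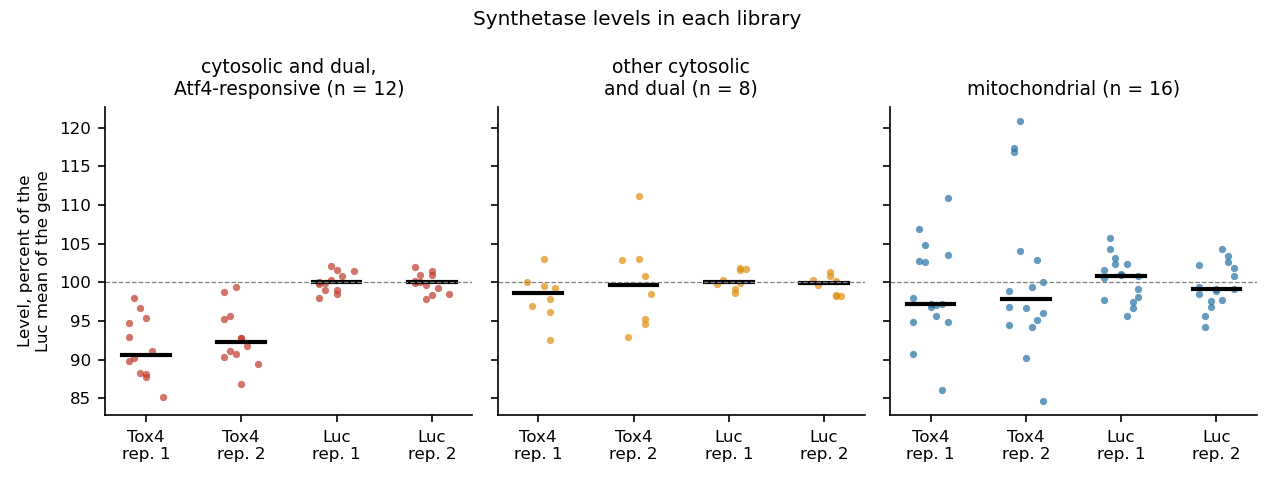
Level of each synthetase gene in each library as a percentage of its own Luc mean, for the 12 Atf4-responsive genes, the 8 other cytosolic or dual genes and the 16 mitochondrial genes. Points are genes, black bars the median over genes, and the dashed line marks 100 percent, about which the 2 Luc values of a gene are symmetric by construction. The median of the Atf4-responsive genes was 90.6% and 92.3% in the Tox4 libraries, against 98.6% and 99.6% for the other cytosolic genes and 97.2% and 97.9% for the mitochondrial genes. The first 2 sets were divided with earlier results of these data known.

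Matches to the C/EBP-ATF response element, the DNA element through which Atf4 acts, were looked for in the promoters of these genes. The letters searched were TGATGNAA on both strands, in RefSeq promoters of GRCm38.p6 from 250 bases before to 50 bases after the start of the gene, and 26 of the 36 synthetase genes had a promoter there. Genes without a promoter there were not searched, among them Nars, Mars, Lars, Cars and Wars of the Atf4-responsive set. Of the genes searched, a match was found in 5 of 7 Atf4-responsive genes, 0 of 5 other cytosolic or dual genes and 0 of 14 mitochondrial genes. The shares were 2.48% of 8898 tested genes and 4.51% of all 27025 genes with a promoter there, or 3.97% of all 32851 promoters counted singly. What is known of Atf4 control may rest in part on such elements, so these counts are not independent of the division. Windows of 30 bases around the match in Gars, Iars, Tars and Yars are given 5′ to 3′ on the strand of the gene with the match in capitals, which for all but Yars reads as the reverse complement, so that the shared core can be seen.
Gars: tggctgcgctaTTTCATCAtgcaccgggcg
Iars: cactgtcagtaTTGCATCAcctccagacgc
Tars: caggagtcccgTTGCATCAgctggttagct
Yars: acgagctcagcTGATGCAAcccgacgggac

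The windows lie at chr6:55037960-55037989 for Gars, chr13:49682126-49682155 for Iars, chr15:11399655-11399684 on the minus strand for Tars and chr4:129189895-129189924 for Yars. Counted from the annotated start, the matches began at base -30 in Gars, 8 in Iars, -15 in Tars and 4 in Yars. Eprs and Sars held no such letters in this window, although Sars had the largest difference in level. Of the other 15 Atf4 targets described below that had a promoter, 6 held a match. A match is a description of the sequence and does not show binding.

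The multisynthetase complex cut across this division. Of its 8 enzyme genes, Dars, Eprs, Iars, Kars, Lars, Mars, Qars and Rars, none passed the test, 7 were below 0, 4 had an unadjusted p under 0.05 in limma, and the median log2 fold change was -0.09. In limma-voom 3 of them (Iars, Lars and Mars), all Atf4-responsive, were called lower. Of all tested genes 51.2% were below 0, 11.5% were lower at an unadjusted p under 0.05, and limma-voom called 5.87% lower. Dars, the aspartyl enzyme, had 124 and 119 FPKM in the Tox4 libraries, against 128 and 127 FPKM in the Luc libraries (-0.07). The scaffold genes did not share a direction. Aimp1 had 90.8 and 96.8 FPKM against 105 and 90.7 FPKM, Aimp2 had 47.2 and 50.7 FPKM against 47.3 and 43.5 FPKM, and Eef1e1 had 50.5 and 46.1 FPKM against 47.5 and 49.4 FPKM. The groups overlapped in all 3, with log2 fold changes of -0.06, 0.11 and -0.0052. By catalytic fold, 1 of 17 class II enzymes was called lower (Nars) and 0 of 18 class I enzymes, with medians of -0.07 and -0.03. Of the class I enzymes 5 had an unadjusted p under 0.05, and limma-voom called these 5 lower, besides 3 of class II. Eprs, which joins a class I and a class II enzyme, was counted in neither.

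The 16 mitochondrial genes had a median log2 fold change of -0.03, with 10 below 0 and 6 above, and no gene passed the test. Both Tox4 libraries lay below both Luc libraries in 7 of them and above in 3, against 26.7% and 25.3% of all tested genes (52.0% either way). Lars2 (chromosome 9, 123366927 to 123462666, plus strand) had the lowest value, -0.14 (SE 0.06, 95% interval -0.28 to -0.0052, adjusted p = 0.217), and was called only in limma-voom (adjusted p = 0.0445). Its groups did not overlap, but its Tox4 libraries differed from each other more than those of Lars did. The mitochondrial asparaginyl and histidyl enzymes were next, with Nars2 at 6.07 and 6.31 FPKM against 6.79 and 6.58 FPKM (-0.10) and Hars2 at 9.35 and 8.72 FPKM against 9.77 and 9.55 FPKM (-0.09). Hars2 and the cytosolic Hars stand head to head on chromosome 18 and share 195 exonic bases on opposite strands. Hars itself had 63.3 and 62.8 FPKM with Tox4 esiRNA and 64.9 and 62.7 FPKM with Luc esiRNA (-0.02).

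Among the mitochondrial genes with smaller differences, Aars2, for alanine, had 15.5 and 15.7 FPKM in the Tox4 libraries, against 16.2 and 16.4 FPKM in the Luc libraries, Cars2, for cysteine, had 12.6 and 12.9 FPKM against 13.4 and 13.3 FPKM, and Sars2, for serine, had 17.8 and 17.7 FPKM against 18.5 and 18.1 FPKM. In these 3, as in Tars2, the Tox4 libraries were the lower ones, with log2 fold changes between -0.07 and -0.04. Iars2, for isoleucine, had 12.0 and 12.3 FPKM against 11.8 and 12.9 FPKM, Yars2, for tyrosine, averaged 15.4 ± 0.102 FPKM against 15.6 ± 0.511 FPKM (SD, n = 2 each), and Vars2, for valine, had 11.8 and 12.5 FPKM against 11.8 and 12.6 FPKM. The groups of these 3 overlapped, as did those of Wars2, Mars2 and Pars2. Rars2, for arginine, had 19.3 and 19.2 FPKM against 19.0 and 17.8 FPKM (0.06, 95% interval -0.06 to 0.18), with both Tox4 libraries above both Luc libraries. The exons of Iars2 share 2034 bases with Rab3gap2, those of Cars2 422 with Naxd and those of Fars2 501 with Nrn1, so that reads of these genes may be shared.

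At the upper end of the mitochondrial set, Fars2, the mitochondrial phenylalanyl enzyme, had 12.2 and 14.4 FPKM in the Tox4 libraries and 12.2 and 11.6 FPKM in the Luc libraries (log2 fold change 0.14, SE 0.08, 95% interval -0.05 to 0.34), and rested on 91 to 121 reads. Ears2 stood at 0.14 (-0.05 to 0.33) and Pars2, the prolyl enzyme, at 0.12 (-0.09 to 0.33), with 6.66 and 7.59 FPKM against 6.86 and 6.12 FPKM. Standard errors ran from 0.04 to 0.11 over the mitochondrial genes and from 0.03 to 0.05 over the cytosolic and dual genes, so that a difference of the size seen in Nars was harder to detect in a mitochondrial gene. Of the 15 pairings by amino acid, the cytosolic log2 fold change was the more negative in 9, with Eprs counted against both Pars2 and Ears2. Whether this exceeds an even split was not tested. For methionine the log2 fold change was -0.16 in Mars and 0.06 in Mars2, for serine -0.20 in Sars and -0.04 in Sars2, and for leucine -0.14 in both Lars and Lars2. The log2(FPKM + 1) scale understates changes of the low mitochondrial genes. In limma-voom Mars2 was at 0.08 and Nars2 at -0.11, against 0.06 and -0.10 here.

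Genes around the synthetases in the same pathway were examined with the same fit. In this fit 2.62% of all tested genes were called lower and 1.89% higher, and 11.5% and 10.0% at an unadjusted p under 0.05. The shares called in limma-voom were 5.87% and 5.97%. Among 13 tested genes of synthetase partners and other tRNA charging steps, 0 passed in limma and 0 in limma-voom, with 1 lower and 1 higher at an unadjusted p under 0.05 in limma and a median of -0.01. The extremes were Prorsd1, related to prolyl-tRNA editing domains (13.7 and 15.7 FPKM against 18.2 and 17.7 FPKM, log2 fold change -0.27), and Tarsl2, a second cytosolic threonyl enzyme gene (6.07 and 6.32 FPKM against 5.21 and 5.20 FPKM, 0.21). Of 22 cytosolic initiation and elongation factor genes 0 passed in limma, with 2 lower and 1 higher at an unadjusted p under 0.05 and a median of 0.0025, and limma-voom called Eif4ebp1 lower and Eif4g1 higher. The largest difference there was that of Eif4ebp1, a repressor of cap-dependent translation that is also known as an Atf4 target, with 235 and 248 FPKM against 274 and 270 FPKM (-0.17, adjusted p = 0.0686), followed by Eif2s2 at -0.10. Of 8 mitochondrial translation factor genes 0 passed in limma or in limma-voom, with 1 lower and 0 higher at an unadjusted p under 0.05 and a median of -0.0022, and Mtif3 (-0.21) and Gfm2 (-0.055) had the largest differences.

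Other targets of Atf4 were examined beside the synthetases. Of 16 listed genes 8 were called lower and 1 higher, with a median log2 fold change of -0.25, and limma-voom called 12 lower and 1 higher. They spread widely, with Aldh18a1, of proline synthesis, at -0.056, and the difference between this list and the synthetases was not tested. Cth, which makes cysteine from cystathionine, fell to 15.8 and 15.3 FPKM in the Tox4 libraries, against 25.2 and 25.4 FPKM in the Luc libraries (-0.67, SE 0.04, adjusted p = 0.00263). Stc2, a secreted glycoprotein gene, fell to 41.0 and 40.0 FPKM, against 51.6 and 49.3 FPKM (-0.31), and Psph, the last step of serine synthesis, fell by 0.25 on the log2 scale. Trib3, Chac1, Asns, Ddit4 and Psat1 were the other genes called lower. Asns, which makes the asparagine that Nars loads, had a log2 fold change of -0.29, against -0.19 in Nars. Sesn2, an inhibitor of mTORC1 signalling and also a p53 target, rose to 54.1 and 53.8 FPKM, against 43.4 and 43.9 FPKM (0.30). Several genes of this list are named in earlier results of these data, so that its count is not independent support.

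The regulators upstream did not pass in limma on FPKM. Of 12 genes of the eIF2 kinases and the Atf4 pathway 0 were called in limma, with 3 lower and 1 higher at an unadjusted p under 0.05, while limma-voom called 2 lower (Atf3 and Atf4). Atf4 mRNA was at 232 and 242 FPKM in the Tox4 libraries, against 265 and 258 FPKM in the Luc libraries (log2 fold change -0.14, SE 0.04, adjusted p = 0.0987). Its groups did not overlap, as in 52.0% of all tested genes. Atf3 and Ddit3 had the largest differences in the list, at -0.40 and -0.21, and Atf3 had 7.12 and 7.73 FPKM against 11.0 and 9.27 FPKM (adjusted p = 0.0661). Eif2ak4, the sensor of uncharged tRNA, had 15.6 and 14.4 FPKM against 14.6 and 15.0 FPKM (0.02, 95% interval -0.12 to 0.15). Atf4 is controlled mainly through its translation, which was not measured. Of 9 tested amino acid transporter genes, Slc7a3, a carrier of arginine and lysine, was called lower (99.6 and 99.7 FPKM against 115 and 111 FPKM, -0.18) and 8 did not pass, with 3 lower and 0 higher at an unadjusted p under 0.05 and 1 lower in limma-voom. Among 10 tested genes of the Myc family and mTORC1, Mycn was called higher (17.5 and 17.7 FPKM against 15.0 and 14.4 FPKM, 0.24) and 9 did not pass, with 0 lower and 3 higher (Mycn, Myc and Rptor) at an unadjusted p under 0.05 and 2 higher in limma-voom (Mycn and Rptor).

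**Figure D4:**
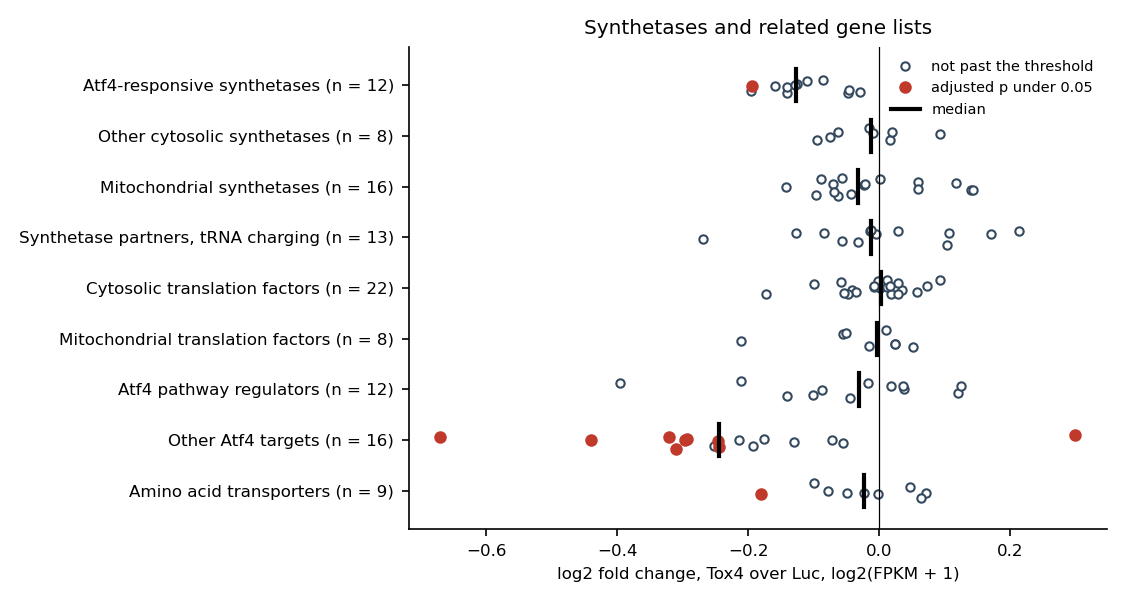
log2 fold change, Tox4 over Luc, on the log2(FPKM + 1) scale for each tested gene of the 3 synthetase sets and 6 related lists. Filled points passed an adjusted p of 0.05 in limma, open points did not, and vertical bars are medians. The other Atf4 targets have a median of -0.25 and the Atf4-responsive synthetases one of -0.13, and the medians of the remaining lists lie between -0.03 and 0.0025. The sets and lists were chosen with earlier results of these data known.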

How the data were processed

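Libraries were made from bead-purified poly(A) RNA, per the labels. The authors deposited FPKM values per gene, in 1 series table and 4 library files with identical values. CASAVA 1.8, STAR 2.3.0e and build GRCm38.p1 are listed in the submitters' processing notes. Not given in the sources used here are the counting program, the annotation and whether strand was used.

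Values of all 4 libraries were tested as log2(FPKM + 1) where the mean over libraries reached 1 FPKM, with limma 3.58.1 in R 4.3.3 (two-sided, intensity trend, no covariate, 2 residual and 4.01 prior degrees of freedom, Benjamini-Hochberg over 12403 genes, threshold 0.05). A fold change on this scale understates the change of low genes. Whole reads were worked back from the FPKM steps. 100% of values came out whole to a relative tolerance of 1e-11, and each gene was given its fewest possible reads, which may understate them by a factor common to the 4 libraries. Reads summed to 97.7% of the depth that the scaling implies. The recovery returned 96.5% of genes in simulated data, and limma was tested on simulated reads of 12403 genes, where 9.40% of calls were false. Replicates differed by more than sampling noise (chi-square per degree of freedom 1.96 for Tox4, 1.64 for Luc). Coordinates are from GENCODE M21 (GRCm38).

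All 36 members could be named. Other lists gave their called genes, up to 6 by size, or the 2 largest changes where none passed, besides Atf4 and the 3 scaffold genes. Asns, Psph, Psat1, Eif2ak4, Eif4g1, Aldh18a1, Myc, Rptor and the uncalled markers were named beyond this rule with their values known. The members and lists were chosen with earlier results of these data known. Alternatives were pseudocounts, filters, scaling, the variance trend, limma-voom, a replicate block and leaving out each library. The windows of 1 gene with a motif match are not reported here.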

Additional observations from a re-analysis of the deposited data

How the results depend on the processing

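The counts of calls rested on the settings. Main counts were 559 genes, 1 synthetase, 1 cytosolic and 0 mitochondrial. With no filter on low values these were 348 genes and 0 synthetases, with a filter at 5 FPKM 841 genes and 4 synthetases, all cytosolic (Lars, Mars, Nars and Sars), and with no intensity trend 78 genes and 0 synthetases. Quantile normalization gave 2 synthetases, both cytosolic, and put the cytosolic median at -0.052 (log2), against -0.068 in the main setting. In limma-voom there were 1468 genes, 8 synthetases, 6 cytosolic and 1 mitochondrial. The replicate block, a paired fit on replicate number, gave 556 genes and 0 synthetases, with Nars at an adjusted p of 0.0621. The labels do not say that the numbers pair libraries, and deviations of same-numbered libraries correlated at -0.04 over genes. With 1 library left out, in fits that assume the lone library of a group to vary like the other group, there were 61 to 437 genes, 0 to 1 synthetases, 0 to 1 cytosolic and 0 mitochondrial. The cytosolic median ran from -0.076 to -0.061 and the mitochondrial from -0.047 to -0.021 (log2). Sars without Tox4 replicate 2 was the single call, and calls over all genes were 61 and 63 without Luc replicate 1 and 2. Of 466 log2 fold changes of single synthetases under 13 alternatives 13 changed sign, none of them called in any fit. Rars was at 0.014 with quantile normalization. With 1 library left out the ranges were -0.040 to 0.0089 for Hars, -0.080 to 0.035 for Iars2, -0.0072 to 0.042 for Qars, -0.033 to 0.014 for Rars and -9.2e-05 to 0.041 for Vars. They were -0.044 to 0.046 for Vars2, -0.058 to 0.0015 for Wars, -0.17 to 0.038 for Wars2 and -0.052 to 0.011 for Yars2. The cause of these shifts was not tested.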
